A study of Mus musculus with 6 samples.

Results

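Molecular chaperones were described in CD8 T cells through 41 genes, taken by their symbols from the 32285 genes of the count files. The genes were kept in 4 groups by compartment. The cytosolic heat shock group held 21 genes, the cytosolic chaperonin CCT 8 subunits, the endoplasmic reticulum (ER) 8 chaperones and folding enzymes, and the mitochondria 4 chaperones. All 41 were found, and each symbol stood on a single gene ID.

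The cells came from mice that carried B16-OVA, a mouse melanoma line expressing ovalbumin, and were collected on day 12. Control mice had the genotype CD8-Cre Rosa26Tomato, and CD8-IFNγRKO mice had in addition both floxed copies of *Ifngr1* (IFNgR1flox/flox), so that the Cre and the Tomato reporter were common to all groups. The Cre is driven by *Cd8a* sequences and acts in mature CD8 T cells, so other cells of these mice keep the receptor. Tumors and draining lymph nodes (LN) of 3 mice per genotype were pooled, CD45+ CD3+ CD8+ Tomato+ cells were sorted, and the cells of each tissue and genotype went into 1 single-cell library, which reads the 5′ ends of transcripts. Each group was therefore 1 library, and no comparison had replicates. Tumors were incubated for 30 min at 37 °C with Liberase TL and DNase I, whereas LN were only pressed through a strainer, so the tissue and the way it was dissociated cannot be told apart.

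Levels are unique molecular identifiers (UMIs, which count captured RNA molecules) summed over the cells of a library and scaled to the same library total as CPM, not divided by transcript length. Intervals are exact 95% intervals for counting error only. After filtering, 6640 to 8631 cells and 28841136 to 93923130 UMIs per library remained, with a median of 9399 UMIs per cell in CD8-IFNγRKO tumors, 6306 in control tumors, 3863 in CD8-IFNγRKO LN and 4051 in control LN. None of 8 CD8 T cell markers was at 0 in any library, and their sum was 6089 to 9367 CPM. The sum of 10 macrophage markers was 3.98 to 18.0 CPM and that of 6 melanoma markers 2.51 to 3.92 CPM. *Ifngr1*, whose floxed part is the target, was at 238 CPM in CD8-IFNγRKO and 718 CPM in control tumors, and at 137 and 182 CPM in LN, where the difference was smaller. The deleted part need not lie in the 5′ end that was read, so these values are a limited check of the labels. Any 2 libraries shared 51 to 82 barcodes of kept cells, at most 1.23% of a library.

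Chaperones bind proteins that are not fully folded and let them fold, refold or be passed on for degradation. Heat shock factor 1 (*Hsf1*) switches on the inducible cytosolic members when unfolded proteins build up, while unfolded proteins in the ER act through a separate unfolded protein response. Growing and secreting T cells depend on both systems, since activation brings a large increase in protein synthesis, and inducible heat shock genes also react quickly to warming and handling of cells.

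The members took 1.86% of all UMIs in CD8-IFNγRKO tumors, 1.31% in control tumors, 1.41% in CD8-IFNγRKO LN and 1.18% in control LN. *Hspa8*, the constitutive cytosolic Hsp70, ranked first by its mean over the libraries, with 3719 CPM in CD8-IFNγRKO tumors and 3154 CPM in control tumors, and 3123 CPM in CD8-IFNγRKO LN and 2637 CPM in control LN. *Hsp90ab1*, the constitutive Hsp90, came next, with 3449 CPM in CD8-IFNγRKO tumors and 2291 CPM in control tumors, and 2904 CPM in CD8-IFNγRKO LN and 2319 CPM in control LN. All other members had a mean below either of these. *Hspb1*, a small heat shock protein, was the least abundant, with 25.9 CPM in CD8-IFNγRKO tumors and 7.61 CPM in control tumors, and 1.87 CPM in CD8-IFNγRKO LN and 1.10 CPM in control LN. The plot of levels by library shows that CCT subunits lay close together, whereas cytosolic members spread widely.

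**Figure D1:**
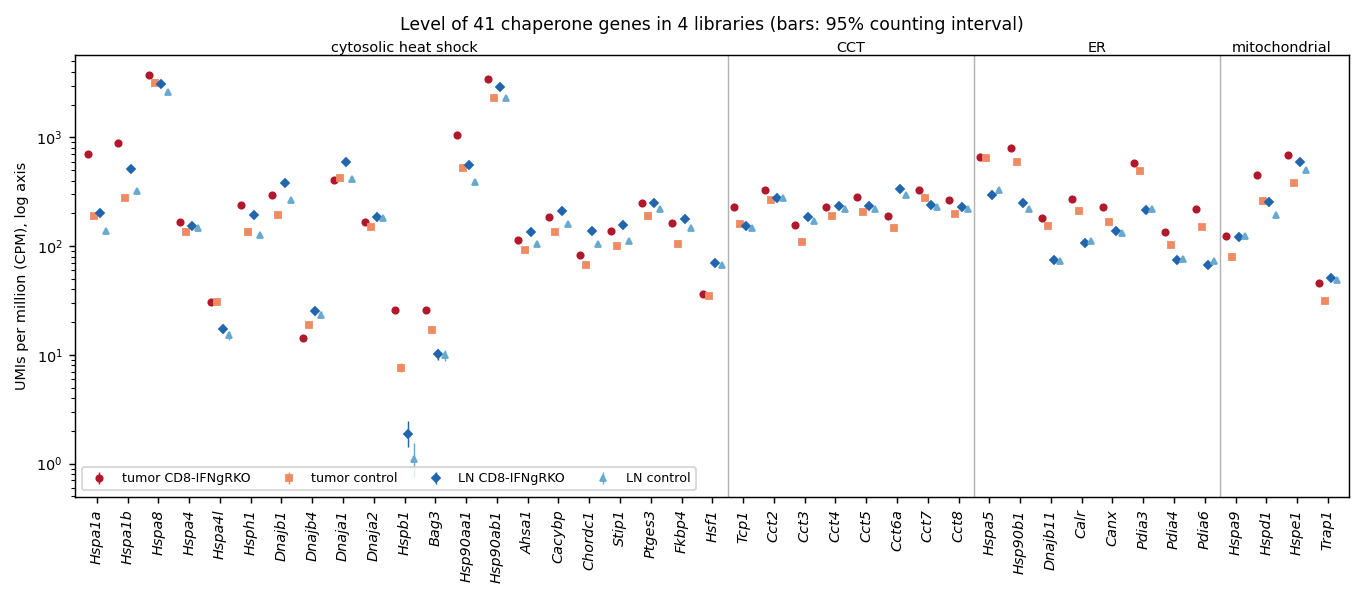
Level of each of the 41 chaperone genes (x axis, by group) in CPM (y axis, log scale) in the 4 libraries, 1 point per library, with bars for the 95% counting interval. *Hspa1a*, at 698 CPM, stands above its other 3 libraries in CD8-IFNγRKO tumors, and the 8 ER genes stand higher in both tumor libraries than in both LN libraries.

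The first comparison set CD8 TILs without the IFNγ receptor against control TILs. Among 40 members with a mean of at least 10 CPM, 11 were at least 1.5-fold higher in CD8-IFNγRKO tumors and 0 at least 1.5-fold lower. Over all 7655 genes read in the same way, 4.39% were higher and 3.2% lower. The 11 were 8 of 20 cytosolic heat shock members and 3 of 4 mitochondrial chaperones, and none of the 8 CCT subunits or the 8 ER genes. Log2 ratios, with 1 CPM added, were above 0 for 37 of 40 members, against 52.0% of all genes. The median of the members was 0.43, against 0.01 for all genes. *Hspb1*, whose mean fell below 10 CPM, was not counted, and its ratio was 1.65 (1.52 to 1.78).

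The inducible Hsp70 genes differed most. *Hspa1a* was at 698 CPM in CD8-IFNγRKO tumors and 188 CPM in control tumors, and *Hspa1b* at 881 CPM in CD8-IFNγRKO tumors and 279 CPM in control tumors. The log2 ratios were 1.89 (95% counting interval 1.86 to 1.92) for *Hspa1a* and 1.66 (1.63 to 1.68) for *Hspa1b*. Both genes encode nearly the same protein, and reads in shared sequence can be lost or put on the wrong copy, so the split between them is uncertain. Their promoters are close to identical too. In the RefSeq tables for GRCm38.p6, the 300 bases around the starts of *Hspa1a* and *Hspa1b* differ at 4 positions. The stretch below is shown because it holds a pair of the units that heat shock factors bind. It lies upstream of *Hspa1a* at chr17:34972207-34972286 on the minus strand, and the same letters stand upstream of *Hspa1b* at chr17:34959289-34959368, also on the minus strand. The capitals mark a match to GAANNTTC, which reads the same on both strands.
Hspa1a: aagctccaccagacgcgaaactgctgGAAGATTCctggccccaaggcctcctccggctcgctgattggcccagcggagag

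GAANNTTC stood in the promoter windows of 8 of 17 cytosolic heat shock members with an entry, 1 of 7 CCT members, 0 of 8 ER members and 2 of 3 mitochondrial members, and in those of 9.04% of all 27025 genes. A longer form, in which NNGAA follows it, contains it and was searched on both strands. It was found in 0.662% of all genes and, among the members, in *Hsph1*, *Chordc1*, *Hspd1* and *Hspe1*. Its matches in *Hsph1* and *Chordc1* lie at or after the start of transcription. Of the 41 members, 35 had a promoter entry. *Hspa8*, *Hsp90aa1*, *Hsp90ab1*, *Hsf1*, *Cct4* and *Hspa9* had none. These matches describe the letters in the window and do not show binding.

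*Hsph1*, an Hsp110 that releases nucleotide from Hsp70 proteins, was at 239.5 CPM in CD8-IFNγRKO tumors and 134 CPM in control tumors, with a log2 ratio of 0.84 (0.80 to 0.87). *Hspa8* differed less, at 0.24 (0.23 to 0.25), and so did the other Hsp110 *Hspa4*, at 0.29 (0.25 to 0.33). *Hspa4l*, a further Hsp110, was at 30.7 and 30.9 CPM, a difference of -0.01 whose interval included 0 (-0.09 to 0.07). Thus *Hspa1a*, *Hspa1b* and *Hsph1* differed more than *Hspa8*, *Hspa4* and *Hspa4l*.

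J-domain proteins deliver clients to Hsp70 and start its ATP hydrolysis. They did not share a direction in the tumor comparison. *Dnajb1*, a heat-inducible one, was at 296 CPM in CD8-IFNγRKO tumors and 194 CPM in control tumors, with a ratio of 0.61 (0.58 to 0.64). *Dnaja2* was at 0.15, *Dnaja1* at -0.07 (-0.09 to -0.04) and *Dnajb4* at -0.38 (-0.49 to -0.28), so that *Dnaja1* and *Dnajb4* were slightly lower without the receptor. *Bag3*, a cochaperone that couples Hsp70 to small heat shock proteins and autophagy, was at 26.1 CPM in CD8-IFNγRKO tumors and 16.9 CPM in control tumors, a ratio of 0.60 (0.49 to 0.70).

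Hsp90 completes the folding of kinases and receptors, with cochaperones that set its ATP cycle. Its inducible form *Hsp90aa1* was at 1051 CPM in CD8-IFNγRKO tumors and 522 CPM in control tumors, a ratio of 1.01 (0.99 to 1.03), and *Hsp90ab1* had 0.59 (0.58 to 0.60). All 6 Hsp90 cochaperones were above 0, with a median of 0.43. *Fkbp4*, an immunophilin of steroid receptor complexes, was the only one of them past 1.5-fold, at 0.62 (0.58 to 0.67). *Cacybp*, *Stip1* (which links Hsp70 to Hsp90), *Ptges3* (p23), *Ahsa1* (an activator of the ATPase) and *Chordc1* ran from 0.47 down to 0.30. *Hsf1* itself, at 36.6 CPM in CD8-IFNγRKO tumors and 34.7 CPM in control tumors, had a ratio of 0.07 whose interval included 0 (-0.01 to 0.15). The summed level of the 21 cytosolic members was 12142 CPM in CD8-IFNγRKO and 8271 CPM in control tumors.

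**Figure D2:**
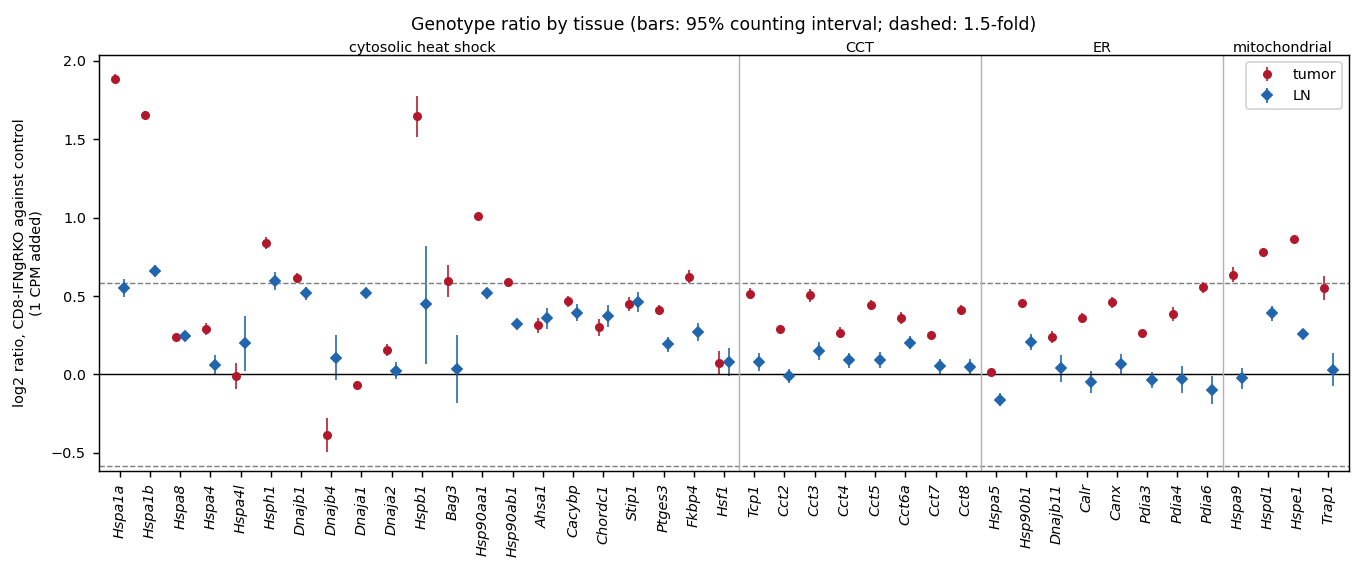
Log2 ratio of CD8-IFNγRKO against control (y axis, 1 CPM added) for each member (x axis, by group) in tumor and LN, with bars for the 95% counting interval and dashed lines at 1.5-fold. In tumors *Hspa1a* and *Hspa1b* stand highest at 1.89 and 1.66, and the 4 mitochondrial members all lie above 0.5. In LN the points of CCT and ER genes lie close to 0.

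The CCT complex is a double ring that folds actin, tubulin and other proteins, and its 8 subunits enter it in equal numbers. All 8 were higher in CD8-IFNγRKO tumors, none by 1.5-fold, with ratios from 0.25 for *Cct7* to 0.51 for *Tcp1*. *Tcp1* was at 230.1 CPM in CD8-IFNγRKO tumors and 161 CPM in control tumors. The summed level was 2008 CPM against 1558 CPM.

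The ER members were also above 0 in all 8 cases, with a median of 0.37 and none past 1.5-fold. *Hspa5*, the ER Hsp70 also called BiP, hardly differed at 659 CPM in CD8-IFNγRKO tumors and 651 CPM in control tumors, a ratio of 0.02 (0.00 to 0.03). *Hsp90b1*, the ER Hsp90, was at 807 CPM in CD8-IFNγRKO tumors and 589 CPM in control tumors, a ratio of 0.45 (0.43 to 0.47). The disulfide isomerase *Pdia6* had the highest ratio of the group, 0.56 (0.52 to 0.59). *Calr* and *Canx*, the lectin chaperones that hold glycoproteins, had 0.36 and 0.46.

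The mitochondrial chaperones were the group with the highest median, 0.71. *Hspd1* (Hsp60) and *Hspe1* (Hsp10) form the folding chamber of the matrix. *Hspd1* was at 451 CPM in CD8-IFNγRKO tumors and 262 CPM in control tumors, a ratio of 0.78 (0.75 to 0.81). *Hspe1* was at 695 CPM in CD8-IFNγRKO tumors and 382 CPM in control tumors, a ratio of 0.86 (0.84 to 0.88). *Hspa9* (mortalin), which pulls imported proteins into the matrix, had 0.63, and *Trap1*, the mitochondrial Hsp90, 0.55. Both partners of the chamber were thus higher together, and they stand head to head in the genome around a shared promoter. The following stretch of it is shown at chr1:55088038-55088097 (GRCm38.p6), read in the direction of *Hspe1* on the plus strand. The capitals mark 2 overlapping matches to the longer form, one on each strand.
Hspe1: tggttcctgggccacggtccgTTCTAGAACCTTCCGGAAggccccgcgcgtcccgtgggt

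Related cofactors, unfolded protein response genes and mitochondrial protease and import genes outside the member lists differed less in tumors. Of 31 other cytosolic cofactors 1 was at least 1.5-fold higher (*Fkbp5*, a steroid-induced immunophilin, at 0.67) and 1 lower (*Sqstm1*, the autophagy receptor p62, at -0.83), and the median was 0.10. Of 25 genes of the unfolded protein response 1 was higher (*Sdf2l1*, an ER cofactor, at 0.71) and 1 lower (*Ern1*, which encodes the sensor IRE1, at -0.95), with a median of 0.04. All 23 mitochondrial proteases and import genes were above 0 with a median of 0.28, and *Timm8a1* (0.83) and the matrix protease *Lonp1* (0.67) were past 1.5-fold.

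Other measures also differed between the 2 tumor libraries. The depth per cell is given above. The summed level of 17 immediate early genes, which react to stimulation and to handling, was 5040 CPM in CD8-IFNγRKO and 6704 CPM in control tumors. Of the 17, 7 were at least 1.5-fold lower and 1 (*Myc*) higher, and 4 were above 0. Those above 0 included *Klf2* at 0.50 and *Jun* at 0.38, so the list did not share a direction. Macrophage markers summed to 11.9 and 18.0 CPM, with *Cd68* the highest at 9.59 and 11.9 CPM, and none of the 10 was at 0. The 6 melanoma markers summed to 2.71 and 3.92 CPM, none of them above 0.942 CPM. Of the cells thinned to an equal depth, 38.7% in CD8-IFNγRKO and 21.0% in control tumors had at least 3 UMIs of a list of mitotic genes. The part of these differences in the chaperone levels was not tested, except for cell groups as follows.

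The genotype difference was also read within groups of tumor cells, each cell thinned to 1600 UMIs so that all cells count alike. These groups were chosen after the overall values had been seen. Outside the mitotic gate, *Hspa1a* was at 882 CPM in 5117 CD8-IFNγRKO cells and 207 CPM in 5054 control cells, a log2 ratio of 2.09 (2.01 to 2.17). Among mitotic cells the values were 777 CPM in 3236 cells and 219 CPM in 1344 cells, a ratio of 1.82 (1.68 to 1.96). Outside the gate 12 of 40 members were past 1.5-fold higher, where 7.45% of all genes were, and inside it 8, where 4.28% were. In both groups 0 members were past 1.5-fold lower, against 2.68% and 3.24% of all genes. *Hsp90aa1* had 1.08 outside and 0.80 inside the gate, and *Hspe1* 0.97 and 0.75. The CCT sum had 0.36 outside and 0.20 inside the gate. The ratios of all these were smaller among mitotic cells, and the difference between the ratios was not tested.

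*Tcf7* marks stem-like CD8 T cells. Thinning can miss its RNA, so TILs without a *Tcf7* UMI may include stem-like cells. *Tcf7* was detected in 437 thinned CD8-IFNγRKO and 188 thinned control TILs. In these cells *Hspa1a* was at 1287 and 233 CPM, a ratio of 2.46 (2.11 to 2.83), and without *Tcf7* the ratio was 1.96 (1.90 to 2.03). The difference between these ratios was not tested. *Hspe1* had 0.43 (0.14 to 0.73) with *Tcf7* and 0.93 (0.87 to 0.99) without. Over the 40 members, 10 were past 1.5-fold higher and 1 lower in cells with *Tcf7*, where 18.0% of all genes were higher and 11.7% lower, and 28 of 40 were above 0. The lower one was *Dnajb4*, at -0.89 (-2.22 to 0.49), and the CCT median was 0.03. In cells without *Tcf7* 12 members were past 1.5-fold higher and 0 lower, against 6.68% and 3.27% of all genes. In clones of at least 10 cells 13 were higher and 0 lower, against 7.6% and 4.21%. In clones of a single cell 8 members were past 1.5-fold higher and 0 lower, against 16.0% and 16.2% of all genes. There 32 of 40 were above 0, with medians of 0.04 for CCT and 0.09 for ER members.

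Clones gave a view from inside each library. A clone was defined by both TCR chains, which could be read in 68.8% of kept cells in CD8-IFNγRKO and 60.3% in control tumors. Clones of at least 50 cells numbered 21 and 10. They share the library and the mice, so they are no replicates of the genotype. *Hspa1a* ran from 359 to 2728 CPM over the 21 CD8-IFNγRKO clones (median 645) and from 37.3 to 349.8 CPM over the 10 control clones (median 199.9), so that the ranges did not overlap. The gap between 359 and 349.8 CPM was narrow, and the control clone at 349.8 CPM had 440313 UMIs in 64 cells. No counting interval was taken for single clones, so this gap need not exceed counting error. *Hsp90aa1* ran from 794 to 1219 CPM (median 1036) and from 427 to 579 CPM (median 489), again without overlap. The ranges of *Hspa1b* and *Hsp90ab1* were also apart. For *Hsph1*, *Ptges3* and *Hspe1* 20 of 21 CD8-IFNγRKO clones lay above the highest control clone. Clone values of single genes were taken for members only, so the share of all genes with ranges apart is not known.

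Other members overlapped between clones of both libraries. *Hspa5* ran from 452 to 818 CPM over CD8-IFNγRKO clones and from 458 to 709 CPM over control clones. *Dnajb1* had 3 and *Dnaja1* 2 CD8-IFNγRKO clones above the highest control clone. ER members other than *Hspa5* had from 14 (*Pdia4*) to 19 (*Hsp90b1*) such clones of 21. CCT subunits had from 11 (*Cct6a*) to 15 (*Tcp1* and *Cct4*). Clones that lay mostly apart were thus not particular to the heat-inducible members. As the plot of clones shows, the spread was wide for *Hspa1a* and narrow for *Hsp90aa1*, whose coefficients of variation over CD8-IFNγRKO clones were 0.67 and 0.0896. The 2 clones highest in *Hspa1a*, with 1949 and 2728 CPM, were also the 2 highest in the immediate early sum, at 7738 and 9380 CPM. Both were shallow, with 626413 UMIs in 149 cells and 319307 UMIs in 71 cells. Other CD8-IFNγRKO clones of 147 and 72 cells had 1936498 and 1113873 UMIs. The CCT sums of the 2 shallow clones, 1408 and 1412 CPM, were the lowest of the library, and the part of depth was not tested.

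**Figure D3:**
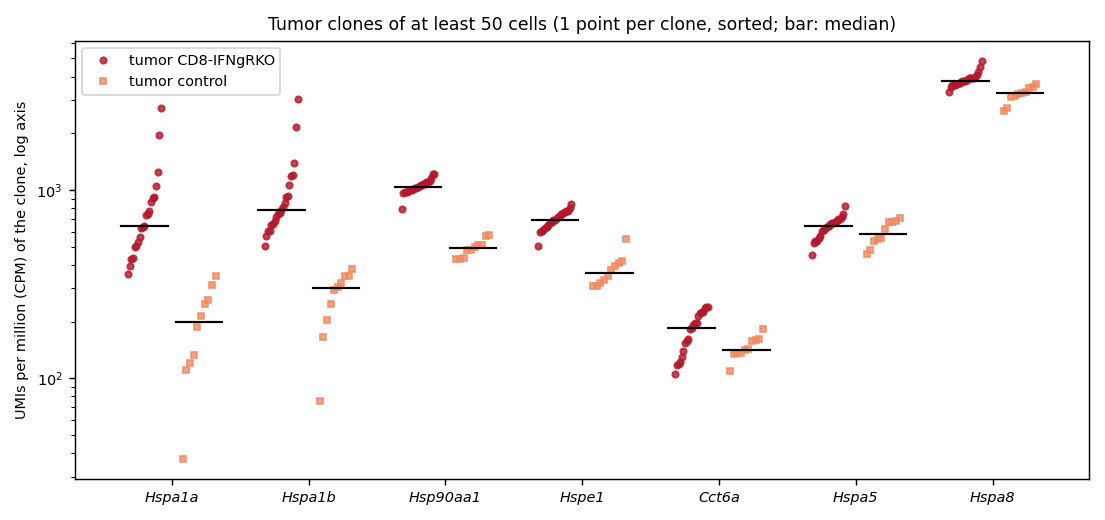
Level of 7 members (x axis) in tumor clones of at least 50 cells, in CPM of the clone (y axis, log scale), 1 point per clone, with bars for the median. All 21 CD8-IFNγRKO clones lie above all 10 control clones for *Hspa1a*, *Hspa1b* and *Hsp90aa1*, whereas those of *Hspa5* and *Cct6a* overlap. The gap for *Hspa1a* is narrow, and clone ranges were not read over all genes.

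In LN, 2 of 40 members were at least 1.5-fold higher in CD8-IFNγRKO cells and 0 lower, where 0.17% of all genes were higher and 0.457% lower. *Hspa1b* was at 507 CPM in CD8-IFNγRKO LN and 321 CPM in control LN, a ratio of 0.66 (0.62 to 0.69). *Hsph1* was at 191 CPM in CD8-IFNγRKO LN and 126 CPM in control LN, a ratio of 0.60 (0.54 to 0.66), just past 1.5-fold. Its ratio was under 1.5-fold, between 0.57 and 0.58, with the other library size, with centring on the median of all genes, with thinned cells and with 5 CPM added. Among LN cells, 1 member (*Hspa1b*) was past 1.5-fold higher outside the mitotic gate, where 0.196% of all genes were higher and 0.653% lower, and 1 (*Hspa1b*) in cells with *Tcf7*, where 0.483% were higher and 0.98% lower. In LN cells without *Tcf7* 3 were higher, *Hspa1b*, *Hsph1* and *Hsp90aa1*, where 1.05% of all genes were higher and 1.32% lower. In each of these groups 0 members were past 1.5-fold lower. Sampling decides much of the detection of *Tcf7* in thinned LN cells, so the groups with and without it need not differ in state. Over all LN cells, *Hspa1a* at 0.55 (0.49 to 0.61), *Dnajb1* at 0.52, *Hsp90aa1* at 0.52 and *Dnaja1* at 0.52 came close behind.

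The cytosolic group stood apart from the others in LN. All 20 tested members were above 0 with a median of 0.34, while 59.8% of all genes were above 0 and their median was 0.03. The CCT median was 0.08, the mitochondrial one 0.15 and the ER one -0.03. The summed cytosolic level was 9993 CPM in CD8-IFNγRKO and 7906 CPM in control LN, and that of ER members 1222 and 1230.1 CPM. The immediate early sum was 10015 and 9971 CPM, and the macrophage markers summed to 5.17 and 3.98 CPM, with 4 of 10 at 0 in each. The median UMIs per cell of these libraries were closer than those of the tumors.

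The tumor and LN comparisons of genotypes share no library. Both tissues came from the same 3 mice per genotype, so the comparisons are not independent. Of 40 members, 30 were higher without the receptor in both, 0 were lower in both, 7 were higher in tumors and lower in LN, and 3 lower in tumors and higher in LN. Signs matched for 47.7% of all genes tested. The 3 were *Hspa4l*, *Dnajb4* and *Dnaja1*. *Dnaja1*, a J protein, had 407 CPM in CD8-IFNγRKO tumors and 427 CPM in control tumors, and 596 CPM in CD8-IFNγRKO LN and 415 CPM in control LN. It was thus highest in CD8-IFNγRKO LN, with the other 3 libraries close together.

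The second kind of comparison set tumor against LN within a genotype. It uses the same 4 libraries as the comparisons above, and tissue, dissociation and depth differ together in it. The states of the cells differed too. The 6 markers of naive or stem-like T cells summed to 173 CPM in CD8-IFNγRKO and 180 CPM in control tumors, and to 2703 and 2562 CPM in LN. The 6 markers of exhausted T cells summed to 1872 and 2753 CPM in tumors, and to 77.9 and 73.6 CPM in LN, and none of these 12 markers was at 0. The part of these states in the values that follow was not tested. In control mice 8 of 40 members were at least 1.5-fold higher in tumors and 6 lower, against 24.4% and 20.6% of all genes. In CD8-IFNγRKO mice 14 were higher and 4 lower, against 26.2% and 22.8%. The library size was also taken with TCR, ribosomal, mitochondrial and member genes left out. The median log2 ratio of all genes was then -0.26 in control and -0.23 in CD8-IFNγRKO mice, against 0.03 and 0.05 otherwise. Of the 41 members tested with this library size, 8 were higher and 9 lower in control mice, against 17.03% and 33.47% of all genes. In CD8-IFNγRKO mice 11 were higher and 6 lower, against 18.83% and 33.07%.

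Most of the higher members were ER genes, 6 of 8 in control mice and 8 of 8 in CD8-IFNγRKO mice, with median log2 ratios of 1.00 and 1.30. *Hsp90b1* was at 252 CPM in CD8-IFNγRKO LN and 218 CPM in control LN, below both tumor values given above, with tumor to LN ratios of 1.43 (1.39 to 1.47) in control and 1.68 (1.64 to 1.71) in CD8-IFNγRKO mice. *Pdia3*, which works with calreticulin on glycoproteins and in MHC class I loading, had 587 CPM in CD8-IFNγRKO tumors and 488 CPM in control tumors, and 213 CPM in CD8-IFNγRKO LN and 218 CPM in control LN, with ratios of 1.16 and 1.46. *Hspa5* was at 296 CPM in CD8-IFNγRKO LN and 331 CPM in control LN, ratios of 0.97 and 1.15.

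*Dnajb11*, the J protein of BiP, had ratios of 1.07 and 1.27, *Pdia6* 1.03 and 1.69, and *Calr* 0.92 and 1.32. *Canx* at 0.33 and *Pdia4* at 0.43 were the 2 below 1.5-fold in control mice. Both tumor values of every ER member were above both of its LN values.

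Promoters of this group were read for a motif already known from ER chaperone genes, so its matches here describe the letters only. The ER stress element, CCAAT and CCACG with 9 bases of any kind between them, was searched on both strands. It stood in the promoter windows of 5 of the 8 ER members and of none of the other 27 members with an entry. It was found in 37 of 27025 genes, or 0.137%. The stretches around the matches are shown to let the spacing be compared, in GRCm38.p6 and in the direction of the gene, with the matches in capitals. A match that begins with CGTGG is on the opposite strand. The positions are chr2:34772005-34772064 (plus) for *Hspa5*, chr10:86705520-86705669 (minus) for *Hsp90b1*, chr8:84847054-84847113 (minus) for *Calr*, chr11:50325779-50325838 (minus) for *Canx* and chr12:17266471-17266530 (plus) for *Pdia6*.
Hspa5: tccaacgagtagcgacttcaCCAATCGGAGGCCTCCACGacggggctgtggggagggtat
Hsp90b1: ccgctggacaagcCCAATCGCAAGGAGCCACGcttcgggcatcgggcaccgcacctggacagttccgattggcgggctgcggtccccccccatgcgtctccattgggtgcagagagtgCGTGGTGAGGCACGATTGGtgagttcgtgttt
Calr: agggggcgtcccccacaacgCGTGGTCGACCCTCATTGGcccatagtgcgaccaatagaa
Canx: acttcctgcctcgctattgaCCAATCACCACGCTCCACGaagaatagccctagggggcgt
Pdia6: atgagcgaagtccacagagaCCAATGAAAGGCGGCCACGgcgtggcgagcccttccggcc

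*Hsp90b1* had 2 matches, one on each strand. *Dnajb11*, *Pdia3* and *Pdia4*, which were also higher in tumors, had none in their windows, so the letters do not separate the ER genes by their ratios.

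Of 25 genes of the unfolded protein response list, 12 were at least 1.5-fold higher in tumors and 3 lower in control mice, against 24.4% and 20.6% of all genes. In CD8-IFNγRKO mice 13 were higher and 3 lower, against 26.2% and 22.8%. Log2 ratios above 0 were seen for 21 of the 25 in control and 19 in CD8-IFNγRKO mice, against 51.8% and 52.4% of all genes. *Sdf2l1* had ratios of 1.76 and 2.61. *Manf*, a secreted ER protein, had 1.11 and 1.60. *Dnajb9*, an ER J protein that restrains IRE1, went the other way, with 109 and 103 CPM in LN and 22.9 and 32.2 CPM in tumors of CD8-IFNγRKO and control mice.

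**Figure D4:**
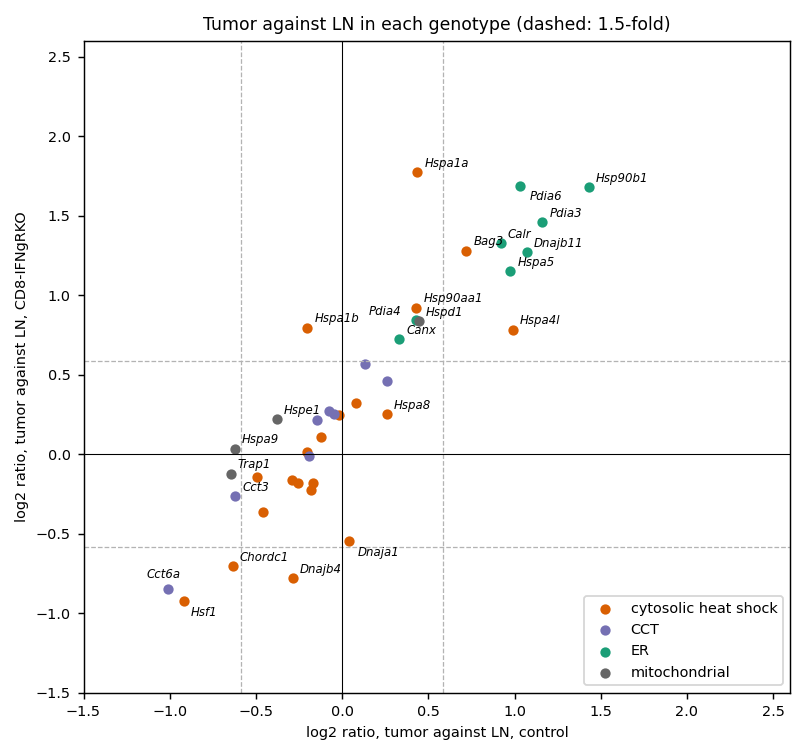
Log2 ratio of tumor against LN in control (x axis) and CD8-IFNγRKO mice (y axis) for the 40 members tested, coloured by group, with dashed lines at 1.5-fold. The 8 ER genes lie at the upper right with medians of 1.00 and 1.30, while *Cct6a*, *Hsf1* and *Chordc1* lie below -0.5 on both axes.

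Cytosolic members did not share a direction between tissues. *Hspa1a* was higher in tumors of both genotypes, with ratios of 0.44 and 1.77. *Hspa1b* had -0.20 in control and 0.80 in CD8-IFNγRKO mice. *Dnajb1* was lower in tumors, at -0.46 and -0.36. *Bag3* and *Hspa4l* were past 1.5-fold higher in both genotypes, and *Hspb1*, which was too low to be counted, had 2.03 (1.73 to 2.31) and 3.23 (2.96 to 3.49).

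Of the members lower in tumors, *Hsf1* had 70.4 CPM in CD8-IFNγRKO LN and 66.6 CPM in control LN, above both tumor values given earlier. Its ratios of -0.92 and -0.93 were almost the same in both genotypes. *Cct6a* had the lowest ratio in control mice, with 188 CPM in CD8-IFNγRKO tumors and 146 CPM in control tumors, and 339 CPM in CD8-IFNγRKO LN and 294 CPM in control LN, ratios of -1.01 and -0.85. The other 7 CCT subunits lay between -0.62 and 0.26 in control mice, so *Cct6a* did not follow its complex. *Chordc1* had -0.63 and -0.71. *Hspa9*, *Trap1* and *Cct3* were past 1.5-fold lower in control mice alone, with 0.03, -0.12 and -0.27 in CD8-IFNγRKO mice.

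Levels were also read cell by cell, after thinning to 1600 UMIs. Of the kept cells, 278 in CD8-IFNγRKO tumors, 701 in control tumors, 41 in CD8-IFNγRKO LN and 237 in control LN were below that depth and left out. *Hspa1a* was detected in 38.2% (37.1 to 39.2, exact binomial interval) of CD8-IFNγRKO TILs, 11.4% (10.7 to 12.2) of control TILs, 17.6% (16.7 to 18.5) of CD8-IFNγRKO LN cells and 13.6% (12.7 to 14.4) of control LN cells. Unthinned, the shares were 55.2%, 20.3%, 25.8% and 21.6%. No cell type in these libraries is known to lack the gene, so the share that free RNA gives was not measured.

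*Hspa1b* was detected in 47.0%, 17.4%, 39.1% and 29.3% of thinned cells, in the same order, and unthinned in 66.6%, 30.9%, 53.7% and 44.8%. It was thus least frequent in control tumors, below both LN libraries. *Hspa8*, by contrast, was found in 97.7% to 98.8% of thinned cells of every library. *Hsp90aa1* was detected in 69.5%, 46.5%, 56.2% and 44.1%, unthinned in 93.8%, 79.3%, 83.8% and 73.5%.

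The inducible Hsp70 genes were unevenly spread among TILs. The variance of the thinned UMIs over their mean, which is 1 for random sampling from equal cells, was 7.53 for *Hspa1a* in CD8-IFNγRKO and 7.78 in control tumors, and 2.53 and 2.22 in LN. For *Hspa1b* it was 6.69, 7.33, 2.56 and 2.21. *Dnajb1* had 2.61 and 1.94 in tumors and 1.21 and 1.14 in LN, and *Hspb1*, seen in 2.19% and 0.641% of TILs, 4.76 and 2.77. ER members lay between 0.967 and 1.39. At least 1.5 was reached by 9 members in CD8-IFNγRKO tumors, 7 in control tumors, 4 in CD8-IFNγRKO LN and 2 in control LN. Leaving out *Hspb1*, the counts were 8, 6, 4 and 2 of 40 members. Of all 7655 genes 2.44%, 2.57%, 1.41% and 1.42% reached it, so that the share was larger in tumors for all genes too. Among genes with a mean of at least 50 CPM it was reached by 8, 6, 4 and 2 of 36 members, and by 5.16%, 5.3%, 2.42% and 2.6% of 2851 genes.

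Summed over the cytosolic group, the median cell had 17, 12, 16 and 12 UMIs of its 1600 in the 4 libraries, and the 99th percentile was 62.0, 40.0, 34.1 and 26.0. CD8-IFNγRKO cells were thus higher at the median in both tissues, while the upper tail was longest in tumors. The highest cell had 163 UMIs in CD8-IFNγRKO and 151 in control tumors, against 58 and 44 in LN. For the ER group the medians were 4, 3, 2 and 2.

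**Figure D5:**
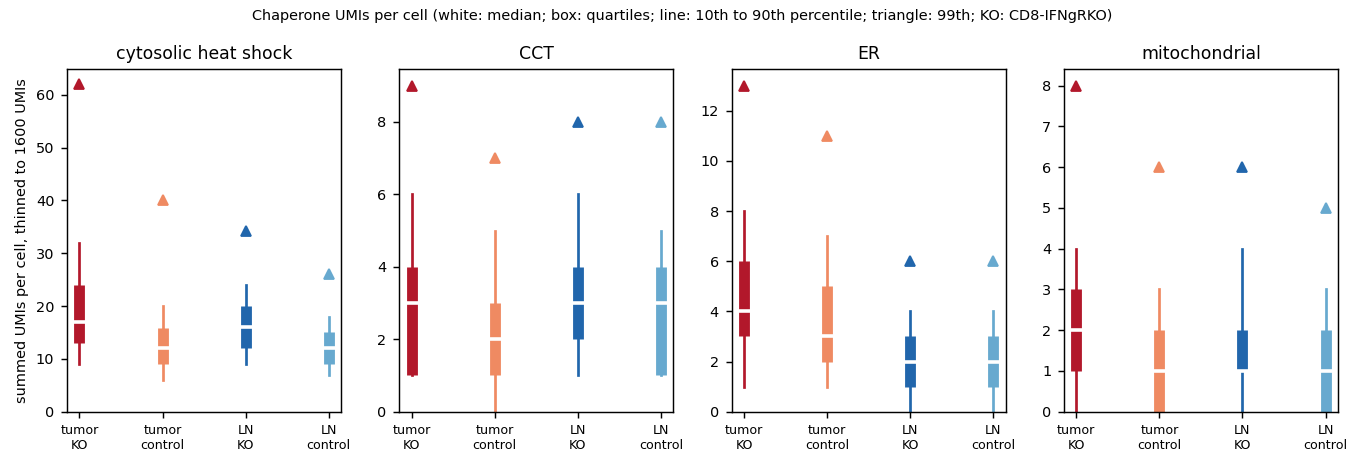
Summed UMIs of each chaperone group per cell thinned to 1600 UMIs (y axis) in the 4 libraries (x axis), with a white bar for the median, a box for the quartiles, a line from the 10th to the 90th percentile and a triangle for the 99th percentile. The cytosolic medians are 17 and 16 in CD8-IFNγRKO and 12 and 12 in control cells, and the 99th percentile of 62.0 in CD8-IFNγRKO tumors is the highest.

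Within a library, cells with at least 1 UMI of *Hspa1a* were set against the rest, to see which members are found in the same cells. In control tumors 731 such cells had *Hspa1b* at 1573 CPM and the other 5667 cells at 136 CPM, a log2 ratio of 3.52 (3.42 to 3.63). *Dnajb1* followed with 1.61 (1.47 to 1.74), *Hsph1* with 1.58 (1.41 to 1.75), *Hsp90aa1* with 1.16 (1.06 to 1.26), *Hspe1* with 1.10 (0.98 to 1.21) and *Hspd1* with 0.94 (0.80 to 1.09). In CD8-IFNγRKO tumors, with 3188 and 5165 cells, the order was alike and the ratios smaller, at 2.42 for *Hspa1b*, 1.34 for *Dnajb1*, 0.77 for *Hsph1*, 0.67 for *Hsp90aa1*, 0.49 for *Hspe1* and 0.32 for *Hspd1*. Reads of *Hspa1a* and *Hspa1b* put on the wrong copy would place both in the same cells, and their part in the *Hspa1b* ratios was not measured.

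CCT and ER genes differed little by *Hspa1a*. The CCT sum had 0.09 (0.02 to 0.16) and the ER sum 0.05 (-0.01 to 0.11) in control tumors, and -0.02 and 0.03 in CD8-IFNγRKO tumors. The CCT interval in control tumors thus excluded 0, and 6 of 8 subunits were above 0 there, with a median of 0.13. *Hsf1* was not detectably higher in the positive TILs, at 0.15 (-0.32 to 0.59) and 0.21 (-0.04 to 0.47). The immediate early sum was 0.24 and 0.37 higher in control and CD8-IFNγRKO cells with *Hspa1a*, and the mitotic list 0.46 and 0.23, and their part was not tested.

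In LN the same split gave little beyond *Hspa1b*, which had 1.25 (1.17 to 1.33) in CD8-IFNγRKO and 1.41 (1.30 to 1.51) in control cells. *Dnajb1* had 0.30 and 0.28, and *Hsph1* 0.08 (-0.08 to 0.24) and 0.11 (-0.12 to 0.33). *Hspa1b* was detected in 75.3% of TILs with and 29.5% without *Hspa1a* in CD8-IFNγRKO tumors, in 57.2% and 12.3% in control tumors, and in 62.8% and 34.0% of CD8-IFNγRKO and 54.1% and 25.4% of control LN cells. Reads put on the wrong copy limit these values too.

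The ER group instead varied with *Tcf7* and clone size among TILs. In cells with *Tcf7* all 8 ER members were lower, with a median log2 ratio of -0.61 in CD8-IFNγRKO and -0.53 in control tumors, against -0.07 and -0.08 for all genes. *Hsp90b1* was at 338 CPM with and 733 CPM without *Tcf7* in CD8-IFNγRKO tumors, a ratio of -1.12 (-1.31 to -0.93), and at 376 and 511 CPM in control tumors, a ratio of -0.44 (-0.73 to -0.18). In LN, where 56.7% and 57.5% of cells had *Tcf7*, the ER median was 0.01 in both libraries. *Tcf7* was at 553 CPM in CD8-IFNγRKO and 579 CPM in control LN, so sampling decides much of its detection in thinned cells. The LN split hardly separated other genes either. Of all genes 0.601% and 0.496% were past 1.5-fold higher and 0.509% and 0.718% lower. The LN medians therefore say little about *Tcf7* and ER members. *Tcf7*+ TILs were also 2.17 (CD8-IFNγRKO) and 2.34 (control) lower in the log2 level of the mitotic list.

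Cytosolic members had no shared direction by *Tcf7* in CD8-IFNγRKO TILs. Of 20, 11 were above 0 and 3 past 1.5-fold higher, a share equal to the 15.0% of all genes, and 0 were past 1.5-fold lower, against 19.6%. *Dnajb1* was at 718 CPM with and 351 CPM without *Tcf7*, a ratio of 1.03 (0.90 to 1.16), *Hspa1a* had 0.66 (0.56 to 0.75) and *Hspa1b* 0.64 (0.55 to 0.73), while *Hsp90aa1* had -0.32 (-0.45 to -0.20). In control tumors 16 of the 20 were above 0, with a median of 0.17, against -0.08 for all genes. Of the 20, 4 were past 1.5-fold higher and 1 lower, against 14.9% and 23.2% of all genes. There *Dnajb1* had 0.29 (-0.05 to 0.61), *Hspa1a* 0.16 (-0.21 to 0.50) and *Hspa1b* -0.27 (-0.62 to 0.06), and each interval included 0. The immediate early sum was 1.09 higher in CD8-IFNγRKO and 0.39 higher in control TILs with *Tcf7*, and its part was not tested. The list of this sum includes *Klf2*, at 2302 CPM in CD8-IFNγRKO LN and 2101 CPM in control LN. In CD8-IFNγRKO and control tumors *Klf2* was at 239 and 168 CPM, and its share in the sum was not read by *Tcf7*.

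Between clones of at least 10 cells and clones of a single cell, all 8 ER members were higher in the larger clones, with medians of 0.86 in CD8-IFNγRKO (5370 and 351 cells) and 0.54 in control tumors (3840 and 179 cells), against 0.13 and 0.08 for all genes. *Hsp90b1* was at 748 and 262 CPM in CD8-IFNγRKO tumors, a ratio of 1.51 (1.28 to 1.76), and at 497 and 321 CPM in control tumors, 0.63 (0.33 to 0.94). *Hspa1a* and *Hspa1b* had opposite signs in the 2 libraries, with -0.45 and -0.69 in CD8-IFNγRKO and 0.63 and 1.31 in control tumors. In clones of a single cell, *Hspa1b* was therefore at 1654 CPM in CD8-IFNγRKO and 119 CPM in control tumors, a genotype ratio of 3.79 (3.30 to 4.32), against 1.79 (1.72 to 1.86) in clones of at least 10 cells. The control value of the former rests on 179 cells. Over all thinned control TILs, 84.6% of *Hspa1b* UMIs lay in the top 10% of cells, a spread that the counting interval leaves out. The difference between these ratios was not tested. The immediate early sum differed by -1.13 in CD8-IFNγRKO and -0.18 in control tumors between larger clones and clones of a single cell, and the mitotic list by 2.58 and 1.90, and their part was not tested.

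Mitotic TILs had more RNA of ER members. The ER sum was 0.20 (0.17 to 0.23) higher in CD8-IFNγRKO and 0.37 (0.32 to 0.41) higher in control mitotic cells. *Hsp90b1* had 0.44 and 0.80, *Tcp1* 0.34 and 0.74, and *Hsp90aa1* 0.35 and 0.62, while *Hspa1a* had -0.18 and 0.08. LN held only 20 and 18 mitotic cells, too few to compare.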

How the data were processed

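Single-cell RNA libraries of sorted CD8+ Tomato+ cells (1 per tissue and genotype) and TCR libraries of both tumors were used. The authors mapped reads with Cell Ranger to mm10 and deposited raw UMI counts per gene and cell barcode, without normalization. For the TCR libraries they deposited filtered contigs with counts of reads and UMIs, used here for clones only. The members and lists were chosen with earlier results of these data known.

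Kept cells had *Cd2*, *Cd8a* and *Cd8b1* UMIs, between 200 and 6000 genes, a mitochondrial share of 3% or less, and no single gene holding over 20% of the UMIs. Cells with 4 or more of 10 macrophage genes were removed (0 to 5 per library). No doublet caller was run. *Ddit3*, on 2 gene IDs, was left out of its list.

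Counts were pooled per library as CPM with exact Poisson intervals. Log2 ratios used 1 CPM added and conditional binomial intervals, and shares Clopper-Pearson intervals, all at 95% and for counting error only. No test, p value or SD between replicates was possible with 1 library per group, and cells and clones were not counted as replicates. Genes with a mean of at least 10 CPM were read as past 1.5-fold or not. All 41 members were named. Of related lists, at most the 3 highest and 3 lowest ratios of the tumor comparison were named, and *Dnajb9*, *Manf* and *Myc* are among these. Thinning used seed 1, and *Tcf7*+ and *Hspa1a*+ cells had at least 1 thinned UMI, mitotic cells at least 3 UMIs of the mitotic list. Cells of a clone had the same alpha and beta chain, by gene segments and CDR3 nucleotide sequence. The groupings of tumor cells in which the genotypes were compared, and the clone values, were added after seeing the data. Ratios, intervals and thinning were checked on simulated counts. Scripts ran on Python 3.11.15 with pandas 2.3.3, numpy 2.4.6 and scipy 1.17.1, and plots were drawn with matplotlib 3.10.9. Promoter sequences are from RefSeq (GRCm38.p6).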

Additional observations from a re-analysis of the deposited data

Results flagged for a closer look

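Members whose ratio had opposite signs in 2 settings, each beyond its counting interval, were listed. None of these differences was tested, since each rests on 1 library per group. Between tissues, the CD8-IFNγRKO against control ratio of *Dnaja1* was -0.0673 in tumors and 0.52 in LN, and that of *Pdia6* 0.56 in tumors and -0.10 in LN.

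Between genotypes, the tumor against LN ratio was negative in control and positive in CD8-IFNγRKO mice for *Hspa1b* (-0.20 and 0.80), *Hspa4* (-0.12 and 0.11), *Hsp90ab1* (-0.017 and 0.25), *Cct2* (-0.0476 and 0.25), *Cct5* (-0.0786 and 0.27), *Cct8* (-0.15 and 0.22) and *Hspe1* (-0.38 and 0.22). For *Dnaja1* it was positive in control (0.0394) and negative in CD8-IFNγRKO mice (-0.55). These signs depend on the scaling. With TCR, ribosomal, mitochondrial and member genes out of the library size, the median log2 ratio of all genes fell from 0.03 to -0.26 in control mice. In CD8-IFNγRKO mice it fell from 0.05 to -0.23. Apart from *Hspa1b*, the positive ratios in this list were no larger than about this shift, so their opposite signs need not hold under it. The same 4 libraries enter both pairs of ratios, so the 2 lists are not separate evidence.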

How the results depend on the processing

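No paired analysis was possible because each group was 1 library, and for the same reason no replicate could be left out. In tumors, the 11 members at least 1.5-fold higher in CD8-IFNγRKO became 9 to 13 under the other choices of cells, library size, pseudocount and filter, and 3 at 2-fold (*Hspa1a*, *Hspa1b* and *Hsp90aa1*), with 0 lower under each. Under those choices 2.99% to 6.18% of all genes were at least 1.5-fold higher and 2.44% to 3.94% lower. At 2-fold the shares of all genes were 0.692% and 0.81%. In LN, the 2 higher (*Hspa1b* and *Hsph1*) became 1 (*Hspa1b*) with TCR, ribosomal, mitochondrial and member genes out of the library size, 1 when centred on the median of all genes, 1 with cells thinned to one depth, 1 with 5 CPM added, 1 outside the mitotic gate, 1 in cells with *Tcf7* and 0 at 2-fold, and 3 in cells without *Tcf7*, where *Hsp90aa1* was added. The shares of all genes higher in LN were 0.189% with the other library size, 0.131% when centred and 0.235% with thinned cells. They were 0.105% with 5 CPM added and 0.0653% at 2-fold, and those of the cell groups are given above. At 2-fold, tumor against LN gave 4 higher and 1 lower of 40 members in control mice, against 14.03% and 9.34% of all genes. In CD8-IFNγRKO mice 8 were higher and 0 lower at 2-fold, against 15.35% and 11.09%. Restricting the genotype comparison to cells in or outside the mitotic gate, with or without *Tcf7*, or to clones of at least 10 cells or of 1 cell was added after seeing the data. In tumors it gave 8 to 13 higher and 0 lower, except 1 lower in cells with *Tcf7*. Thinned to 1000 UMIs, the members with a variance over mean of at least 1.5 numbered 6 in CD8-IFNγRKO tumors, 4 in control tumors, 2 in CD8-IFNγRKO LN and 2 in control LN. Leaving out *Hspb1*, the counts were 5, 3, 2 and 2 of 40 members, against 1.44%, 1.62%, 0.914% and 1.03% of all 7655 genes. Of 1120 single log2 ratios under these choices, 881 stayed inside their counting interval, and none past 1.5-fold changed sign. The choices differed in this. Of 160 ratios each, 91 left their interval with cells thinned to one depth and 82 with the other library size. With cells with macrophage genes kept, all 160 stayed, and with 5 CPM added 157 did. Depth limits *Hspb1* most, with under 2 CPM in LN.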

Other observations

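*Cct6a* varied between cells more than its complex. Its variance over mean in thinned cells was 1.08 in CD8-IFNγRKO tumors, 1.40 in control tumors, 1.59 in CD8-IFNγRKO LN and 1.41 in control LN, while the other 7 CCT subunits lay between 0.974 and 1.07 in every library. A single thinned cell held up to 11 UMIs of *Cct6a* in control LN, and up to 5 of any other subunit. Over CD8-IFNγRKO clones of at least 50 cells it ran from 105 to 239 CPM.

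Over the same 21 clones, Spearman's rho of *Hspa1a* was 0.97 with *Hspa1b*, 0.72 with the immediate early sum, -0.67 with *Cct6a* and -0.09 with the mitotic sum. Over the 10 control clones these were 0.61, -0.22, -0.47 and 0.18. Clones of a library share its preparation and up to 3 mice, so these are descriptions. Reads put on the wrong copy can also raise the rho of *Hspa1a* with *Hspa1b*.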
